A study of Mus musculus with 31 samples.

Results

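The fast-fibre contractile genes described here are 10 genes of the sarcomere, the repeating contractile unit of muscle, that are expressed mainly in fast-twitch fibres. They were given as a list by their known role, with no threshold on measured values. The choice was made with earlier results of these data known. The genes were found by symbol among the 39017 gene identifiers of each count table. They are the myosin heavy chain genes Myh4, Myh1 and Myh2, the myosin light chain gene Mylpf, the tropomyosin gene Tpm1, the troponin genes Tnnt3, Tnni2 and Tnnc2, and the Z-disc genes Actn3 and Myoz1. Expression was measured by polyA RNA sequencing of the gastrocnemius, a calf muscle, in mice at 30 weeks of age that were wild type or knockout for MuRF1. MuRF1 is a ubiquitin ligase of muscle encoded by Trim63. All mice ate freely, and a subset was moved at 8 weeks of age from chow to a high-fat diet with 45% fat from lard. Of 31 libraries, 30 fell into 8 groups. These were male knockout high fat (n = 3), male wild type high fat (n = 4), male knockout chow (n = 4), male wild type chow (n = 4), female knockout high fat (n = 3), female wild type high fat (n = 4), female knockout chow (n = 4) and female wild type chow (n = 4). Libraries carry different animal numbers, so the spread within a group is taken as the spread between animals.

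Force in a sarcomere comes from myosin heads that pull on thin filaments of actin. Each adult fibre type is defined by the myosin heavy chain it makes most of, with Myh4 in the fastest type IIB fibres, Myh1 in type IIX, Myh2 in type IIA and Myh7 in slow type I fibres. Tropomyosin and the troponin complex lie along the thin filament and let the heads bind when calcium rises. Fast and slow fibres use different genes for most of these proteins, and the mouse gastrocnemius is known as a mostly fast muscle.

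The libraries were checked against their labels first. Trim63 lay between 0.487 and 7.75 CPM in the 14 knockout libraries, against 107 to 271 CPM in the 16 wild-type libraries. Levels are given as CPM, counts per gene scaled to library size, with TMM factors that even out the composition of the libraries. The 3 lowest wild-type values were 107, 121 and 124 CPM, in male wild type chow replicate 3, female wild type chow replicate 1 and female wild type high fat replicate 4. Xist and Ddx3y fitted the labelled sex in all 30 libraries. Total counts ran from 9342028 to 14919379 per library. The keratinocyte gene Krt10 was at 20.6 to 41.7 CPM in 3 libraries, female knockout chow replicates 1 and 3 and female wild type chow replicate 3, and at most 3.04 CPM in the others. The keratinocyte genes Krt5, Krt14 and Krt15 were each at 0 counts in 26 libraries. Skeletal muscle markers (Ckm, Acta1, Mb, Des, Ttn and Neb) were present in every library, with a summed level of 58172 to 89639 CPM.

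Myh2, Myh1 and Myh4 lie in this order on the plus strand of mouse chromosome 11 (mm10), at positions 67171027 to 67197517, 67200052 to 67224575 and 67238029 to 67260446. Their promoters are shown because, of these 3 neighbouring genes, Myh4 was called in several comparisons and Myh1 and Myh2 in none. RefSeq promoters (GRCm38.p6) were matched for 6 of the 10 genes, namely Myh4, Myh1, Myh2, Tnnc2, Mylpf and Tpm1, and Myoz1, Actn3, Tnni2 and Tnnt3 had no entry. Each promoter runs from 250 bases before the annotated start to 50 bases after it. The Myh4 sequence is chr11:67237562-67237861, the Myh1 sequence chr11:67199852-67200151 and the Myh2 sequence chr11:67170777-67171076, all on the plus strand. The RefSeq start is the gene start given above for Myh2 and another position for Myh4 and Myh1. Capitals mark matches on either strand to the E-box CANNTG, to TATAAA and to the MEF2 motif.
Myh4: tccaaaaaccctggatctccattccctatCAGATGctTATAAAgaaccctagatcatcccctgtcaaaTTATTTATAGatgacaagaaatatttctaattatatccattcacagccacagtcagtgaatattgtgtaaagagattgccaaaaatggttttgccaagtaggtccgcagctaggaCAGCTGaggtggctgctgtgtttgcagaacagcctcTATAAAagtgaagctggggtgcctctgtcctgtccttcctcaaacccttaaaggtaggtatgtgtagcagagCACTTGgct
Myh1: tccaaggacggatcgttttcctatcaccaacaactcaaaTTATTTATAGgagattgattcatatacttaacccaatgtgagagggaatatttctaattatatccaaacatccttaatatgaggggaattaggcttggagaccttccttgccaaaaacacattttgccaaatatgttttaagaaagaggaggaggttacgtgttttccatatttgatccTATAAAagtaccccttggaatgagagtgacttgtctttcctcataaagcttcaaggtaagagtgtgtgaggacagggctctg
Myh2: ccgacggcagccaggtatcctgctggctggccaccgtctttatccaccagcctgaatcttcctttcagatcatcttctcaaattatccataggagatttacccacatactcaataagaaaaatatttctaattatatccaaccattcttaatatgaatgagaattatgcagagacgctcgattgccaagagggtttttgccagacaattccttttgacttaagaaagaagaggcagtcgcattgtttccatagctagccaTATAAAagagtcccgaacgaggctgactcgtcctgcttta
The Myh4 promoter held 3 E-boxes, the motif of the myogenic bHLH factors, at positions -221, -67 and 42, and the Myh1 and Myh2 promoters 0. The promoters of Mylpf and Tpm1, which were also called in some comparisons, held 1 each, and that of Tnnc2, which was not tested, held 2. All promoters held 1.39 on average. At least 3 E-boxes were found in 17.6% of 32851 mouse promoters of the same length and at least 1 in 72.3%. A MEF2 match was found in Myh4 (position -182) and Myh1 (position -211) and in 3.2% of all promoters, and it overlaps a TATAAA match read on the minus strand. TATAAA matched at position -31 in Myh4, at position -32 in Myh1 and at position 11 in Myh2, where 1 is the first base after the start, and 13.6% of all promoters hold it. The MEF3 motif TCAGGTT was also searched, with 0 matches in the 6 promoters, and 4.1% of all promoters hold it. These are matches of letters and not measured binding. The printed promoters were picked by the calls, and a link between the motifs and the calls was not tested.

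Most of the 10 genes were among the most abundant transcripts of the muscle. Together they held 11.0% to 16.4% of all counts in a library. Myh4 had the highest level of all genes, with 59230 ± 12000 CPM (SD, n = 30 libraries), and Tpm1 and Tnnt3 ranked 5 and 6. Actn3, Mylpf and Tnni2 ranked 14, 19 and 21, and Myh1, Myh2 and Myoz1 ranked 32, 43 and 48. Per kilobase of exon, Tnnt3 was highest at 12760 ± 2980 CPM, followed by Myh4 at 9845 ± 2000, Mylpf at 7703 ± 1360 and Tnni2 at 5136 ± 1190 (SD, n = 30). The SD of Tnnt3 exceeds its gap to Myh4. Tpm1 (3315 ± 655) and Actn3 (3245 ± 530) were within their spread of each other, then came Myoz1 (1125 ± 246), Myh1 (546 ± 115) and Myh2 (337 ± 97.9). The exons of Tpm1 from all its transcripts add up to 6485 bases, and a single transcript may hold fewer, so its level per kilobase can be understated. Away from the myosin cluster (mm10), Mylpf lies at 127208890 to 127214298, Tnni2 at 142441808 to 142444410 and Tnnt3 at 142498836 to 142516009 on the plus strand of chromosome 7. On the minus strand, Tpm1 lies at 67022590 to 67049406 of chromosome 9, Myoz1 at 20649107 to 20656540 of chromosome 14, Actn3 at 4861216 to 4877909 of chromosome 19 and Tnnc2 at 164777161 to 164779967 of chromosome 2.

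Tnnc2, which encodes the calcium-binding subunit of fast troponin, was counted at only 1 to 11 reads per library. It ranged from 0.0834 to 0.970 CPM, did not pass the filter on low counts and was not tested. Its partners in the troponin complex, Tnnt3 and Tnni2, stood at 20190 ± 4720 and 7689 ± 1780 CPM (SD, n = 30). Of the 800 exon bases of Tnnc2, 592 (74.0%) lie within exons of Ube2c on the opposite strand. The strand setting of the counting is not given in the sources used here, and the part of this overlap in the low count was not tested. The count is not used here as a measure of Tnnc2 expression.

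Among the motors, Myh4 held most of the adult myosin heavy chain mRNA in every library. Of the levels per kilobase of Myh4, Myh1, Myh2 and Myh7, the share of Myh4 was 92.5% ± 2.28 in males and 89.4% ± 2.87 in females (SD, n = 15 each). Myh1 took 4.55% ± 1.27 in males and 5.92% ± 1.54 in females, Myh2 took 2.65% ± 0.997 in males and 3.85% ± 1.15 in females, and Myh7 took 0.296% ± 0.146 in males and 0.803% ± 0.270 in females. The ranges of males and females overlap for all 4 genes. The lowest Myh4 share of a group was 87.5% ± 2.30 in female knockout chow (n = 4) and the highest 93.2% ± 0.869 in male knockout chow (n = 4), and these 2 groups do not overlap. Reads of 150 bases that also match another gene could start at 5.91% of Myh1, 3.05% of Myh2 and 0.51% of Myh4 positions, and 8.10% of the exon bases of Myh1 overlap the antisense gene Myhas. The split between these myosins carries that uncertainty.

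**Figure D1:**
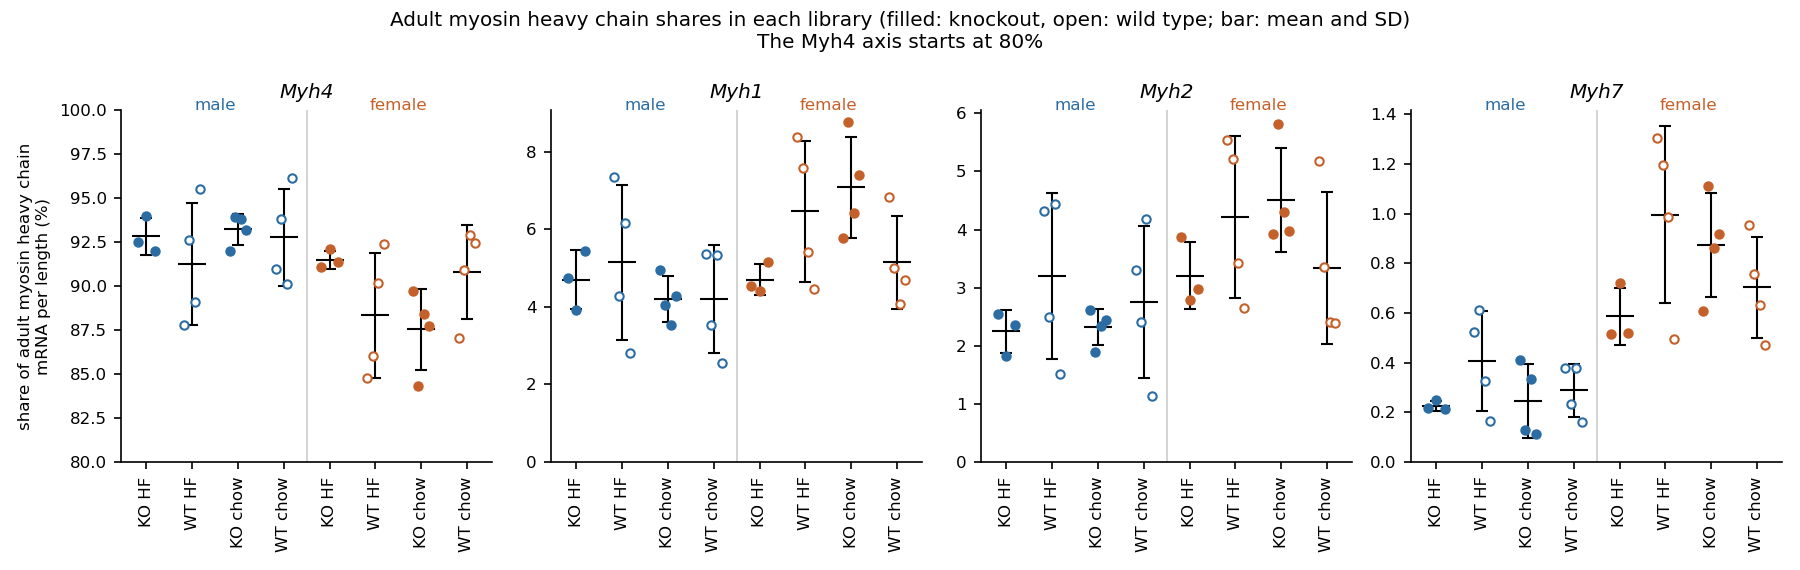
Share of each adult myosin heavy chain gene in the summed level per kilobase of Myh4, Myh1, Myh2 and Myh7 (y axes, %), for each of 30 libraries by group (x axis; KO knockout, WT wild type, HF high fat; filled points knockout, open points wild type, bars mean and SD). The Myh4 axis starts at 80%. Female knockout chow has the lowest mean Myh4 share, 87.5%, and male knockout chow the highest, 93.2%.

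Sex gave the differences that were called on average. Over genotypes and diets, 4 of the 9 tested genes were higher in males (adjusted p under 0.05, edgeR quasi-likelihood test), namely Myh4, Myoz1, Tnnt3 and Tpm1, while 30.8% of all 14024 tested genes were called and 13.4% were called higher. The median log2 fold change, male over female, was 0.19 for the 9 genes and -0.02 for all tested genes. Myh4 ran from 45876 to 93043 CPM with a median of 63949 in males, against 41690 to 64228 CPM with a median of 50926 in females (n = 15 each). The ranges overlap, and 1.25-fold more in males is a log2 fold change of 0.33 ± 0.06 (± SE, adjusted p = 0.000138). Myoz1, which encodes the Z-disc protein calsarcin-2, ran from 1909.7 to 3114 CPM with a median of 2439 in males, against 1482 to 2467 CPM with a median of 1732 in females. Its log2 fold change was 0.44 ± 0.07 (adjusted p = 7.19e-06). Tnnt3, which anchors the troponin complex to tropomyosin, was higher by 0.24 ± 0.08 (adjusted p = 0.0221), and Tpm1, which runs along the actin filament, by 0.20 ± 0.08 (adjusted p = 0.0402). Tnni2, the inhibitory troponin subunit, gave 0.19 ± 0.09 (adjusted p = 0.103), Actn3, the fast isoform of the actin crosslinker alpha-actinin, 0.06 ± 0.08, Mylpf, the regulatory light chain of fast myosin, -0.08 ± 0.07, Myh1 -0.08 ± 0.10 and Myh2 -0.28 ± 0.16 (adjusted p = 0.182). Myh4 and Myoz1 remained called without the 3 libraries high in Krt10 and with scaling by total count, whereas Tnnt3 (adjusted p = 0.0634 and 0.129) and Tpm1 (0.101 and 0.252) did not. With scaling by total count, which lowers the median of all genes to -0.13, Mylpf was lower in males (-0.19, adjusted p = 0.0127). Tpm1 also lost its call without any 1 of 10 libraries, with adjusted p up to 0.0774 (without male wild type chow replicate 4). Tnni2 was called without female knockout high fat replicate 2 (0.28, adjusted p = 0.0078) or without male wild type high fat replicate 1 or female wild type high fat replicate 4 (adjusted p = 0.0405 each). The averages join unlike diets, and on the high-fat diet none of Myh4, Myoz1, Tnnt3 and Tpm1 was called. There Tnnt3 gave 0.02 in wild type and -0.31 in knockouts, and Tpm1 0.08 and -0.22. Myh4 gave 0.125 and 0.003, and Myoz1 0.20 and 0.21.

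Of 12 slow-fibre genes 10 were lower in males, where 2434 of 14024 genes were called lower, with Tnnt1 at -1.04, Myh7 at -1.19, Tnnc1 at -1.12 and Myl2 at -0.81, and the median of the list was -0.79. All 6 fibroblast markers were lower in males, as were 5 of 6 tendon, 5 of 6 macrophage, 3 of 6 adipocyte and 1 of 6 endothelial markers, and 0 of 6 keratinocyte markers were called by edgeR, with 1 at an unadjusted p under 0.05. The summed fibroblast markers ran from 138 to 1018.5 CPM in males, against 374 to 1606 CPM in females, and the tendon markers from 89.7 to 256 CPM in males, against 72.3 to 488 CPM in females. Of 6 skeletal muscle markers 2 were called higher in males and 0 lower, with a median of 0.16. The part of all these markers in the values of the fast-fibre genes was not tested. In whole muscle, fewer fibres of a type and less mRNA per fibre cannot be told apart.

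**Figure D2:**
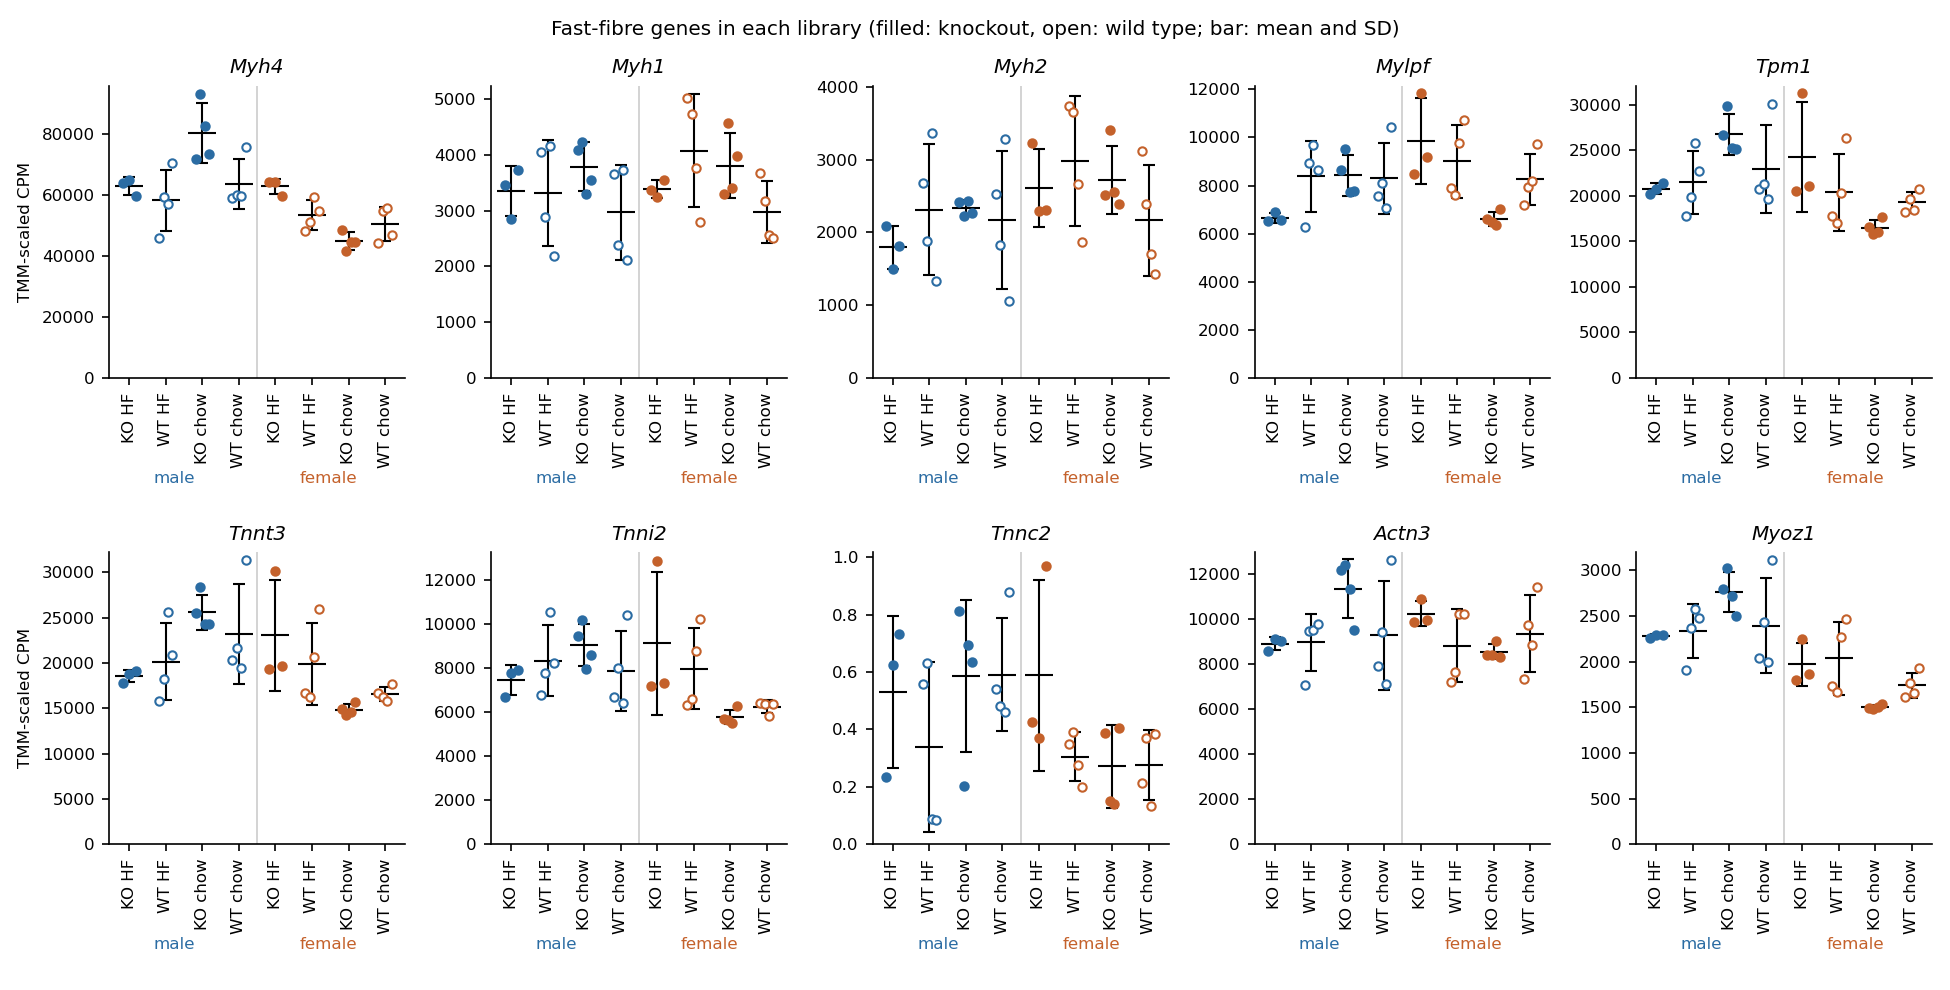
TMM-scaled CPM (y axes, from 0) of the 10 fast-fibre genes in each of 30 libraries by group (x axis; KO knockout, WT wild type, HF high fat; blue male, orange female; filled points knockout, open points wild type; bars mean and SD). Male knockout chow has the highest mean of Myh4, 80160 CPM, and female knockout chow the lowest, 44810 CPM, and Tnnc2 stays under 1 CPM.

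Most calls between the sexes were made in knockout mice on chow. Here 7 of 9 genes were higher in males, and 42.6% of all tested genes were called and 19.1% called higher. The median log2 fold change was 0.65 for the 9 genes and -0.04 for all genes. Myh4 was at 71755, 93043, 82606 and 73250.3 CPM in male knockout chow, against 48515, 41690, 44432 and 44614 CPM in female knockout chow. Every male library lies above every female library, and the log2 fold change of 0.84 ± 0.12 (adjusted p = 3.31e-06) is 1.79-fold. Myoz1 was at 2791, 3030.2, 2720.4 and 2503 CPM in the males, against 1489, 1482, 1504 and 1541 CPM in the females, again without overlap (0.88 ± 0.13, adjusted p = 5.69e-06). Tnnt3 was at 25487, 28365, 24280.2 and 24253 CPM in the males, against 14885, 14309, 14576 and 15682 CPM in the females (0.78 ± 0.16, adjusted p = 0.00024). The male values again all exceed the female values. Tpm1 was at 26746, 29896, 25239 and 25162 CPM in the males, against 16629, 15771, 15972 and 17665 CPM in the females (0.70 ± 0.14, adjusted p = 0.00034). Tnni2 was at 9459.9, 10174, 7963 and 8587 CPM in the males, against 5675, 5621, 5518 and 6252 CPM in the females (0.65 ± 0.17, adjusted p = 0.003). Neither gene overlaps between the sexes. Actn3 ran from 9494 to 12367 CPM in the males, against 8328 to 9037 CPM in the females (0.41 ± 0.15, adjusted p = 0.0268). Mylpf ran from 7749 to 9530.0 CPM in the males, against 6349 to 7008 CPM in the females (0.35 ± 0.14, adjusted p = 0.04). Actn3 and Mylpf do not overlap either. The share of all genes without overlap was not counted in any comparison, so a lack of overlap describes single genes and sets none apart. Myh1, at 3294 to 4241 CPM in the males against 3297 to 4572 CPM in the females, gave -0.01 ± 0.20 (95% interval -0.41 to 0.39), and Myh2 gave -0.22 ± 0.30 (adjusted p = 0.576).

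In this comparison the libraries also differed in other cells and in scaling. The fibroblast markers summed to 138 to 533 CPM in male knockout chow, against 1008 to 1298 CPM in female knockout chow, and 6 of 6 were lower in males. The tendon markers summed to 89.7 to 127 CPM in the males, against 329 to 472 CPM in the females, and 5 of 6 were lower in males. The macrophage, endothelial and adipocyte markers were lower for 6 of 6, 6 of 6 and 5 of 6 genes. The skeletal muscle markers summed to 73636 to 89639 CPM in the males, against 58172 to 61690 CPM in the females. Of these 4 of 6 were called higher in males, with a median of 0.60, against 0.65 for the 9 fast-fibre genes. The part of these markers in the differences was not tested. With scaling by total count the median of all genes became -0.34, and 4 genes stayed called, Myh4 (0.53, adjusted p = 0.000109), Myoz1 (0.56), Tnnt3 (0.47) and Tpm1 (0.39), whereas Tnni2 (0.34, adjusted p = 0.0564), Actn3 (0.09, adjusted p = 0.565) and Mylpf (0.04, adjusted p = 0.814) were not. Without the 3 libraries high in Krt10, Actn3 (adjusted p = 0.0901) and Mylpf (adjusted p = 0.179) were not called. Both also lost their call without male knockout chow replicate 1 (adjusted p = 0.0566 and 0.0627) or replicate 2 (0.0732 and 0.128), and Mylpf without female knockout chow replicate 3 (0.0735). With all 31 libraries grouped by their own titles, Actn3 (adjusted p = 0.0555) and Mylpf (adjusted p = 0.135) were not called. That grouping moves 4 libraries into groups that their Trim63, Xist or Ddx3y levels go against. With an offset for GC content Actn3 was not called (adjusted p = 0.063).

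Fewer genes were called between the sexes in the other 3 settings. In wild-type mice on chow, Myoz1 (0.46 ± 0.13, adjusted p = 0.0179) and Tnnt3 (0.48 ± 0.16, adjusted p = 0.041) were higher in males, 2 of 9 genes, while 12% of all genes were called and 5.51% were called higher. The median was 0.25 for the 9 genes and 0.00 for all genes. Myh4 gave 0.34 ± 0.12 (adjusted p = 0.0572), and DESeq2 called it (adjusted p = 0.0295). Tnnt3 in male wild type chow was at 20278, 21592, 19495 and 31326 CPM, against 16736, 16203, 15821 and 17639 CPM in female wild type chow. The groups do not overlap, and male replicate 4 stands above the rest. Neither gene was called without male wild type chow replicate 4 (Myoz1 0.32, adjusted p = 0.127, and Tnnt3 0.31, adjusted p = 0.248), without female wild type chow replicate 3 (adjusted p = 0.0605 and 0.11) or without the 3 libraries high in Krt10 (adjusted p = 0.0785 and 0.135). Tnnt3 also lost its call without male replicate 2 or any 1 of the other 3 female libraries (adjusted p = 0.0509 to 0.0714). Fibroblast markers summed to 479.7 to 879 CPM in male wild type chow, against 999 to 1606 CPM in female wild type chow, with 2 of 6 called lower in males, and their part was not tested. In wild-type mice on the high-fat diet 0 of 9 genes were called by edgeR or by DESeq2, 0 had an unadjusted p under 0.05, and 12.5% of all genes were called. The log2 fold changes lay between -0.37 for Myh2 and 0.20 for Myoz1, with a median of 0.02 against -0.01 for all genes.

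In knockout mice on the high-fat diet, Mylpf alone was called, and it was lower in males (-0.56 ± 0.16, adjusted p = 0.0175), 1 of 9 genes, while 13.4% of all genes were called and 5.88% were called lower. It was at 6522, 6896 and 6560.3 CPM in male knockout high fat, against 8496, 11861 and 9195 CPM in female knockout high fat. The groups do not overlap. The call was lost without female knockout high fat replicate 2 (-0.42, adjusted p = 0.153), the highest library, without any 1 of the 3 males (adjusted p = 0.0521 to 0.0688), and with these 2 groups fitted alone (adjusted p = 0.0536). Fibroblast markers summed to 483 to 718 CPM in male knockout high fat, against 691 to 849.7 CPM in female knockout high fat, with 2 of 6 called lower in males, and their part was not tested. Myh4 was at 59549 to 64898 CPM in the males and 59682 to 64228 CPM in the females (log2 fold change 0.00 ± 0.14, 95% interval -0.28 to 0.28). The median was -0.22 for the 9 genes and -0.03 for all genes.

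**Figure D3:**
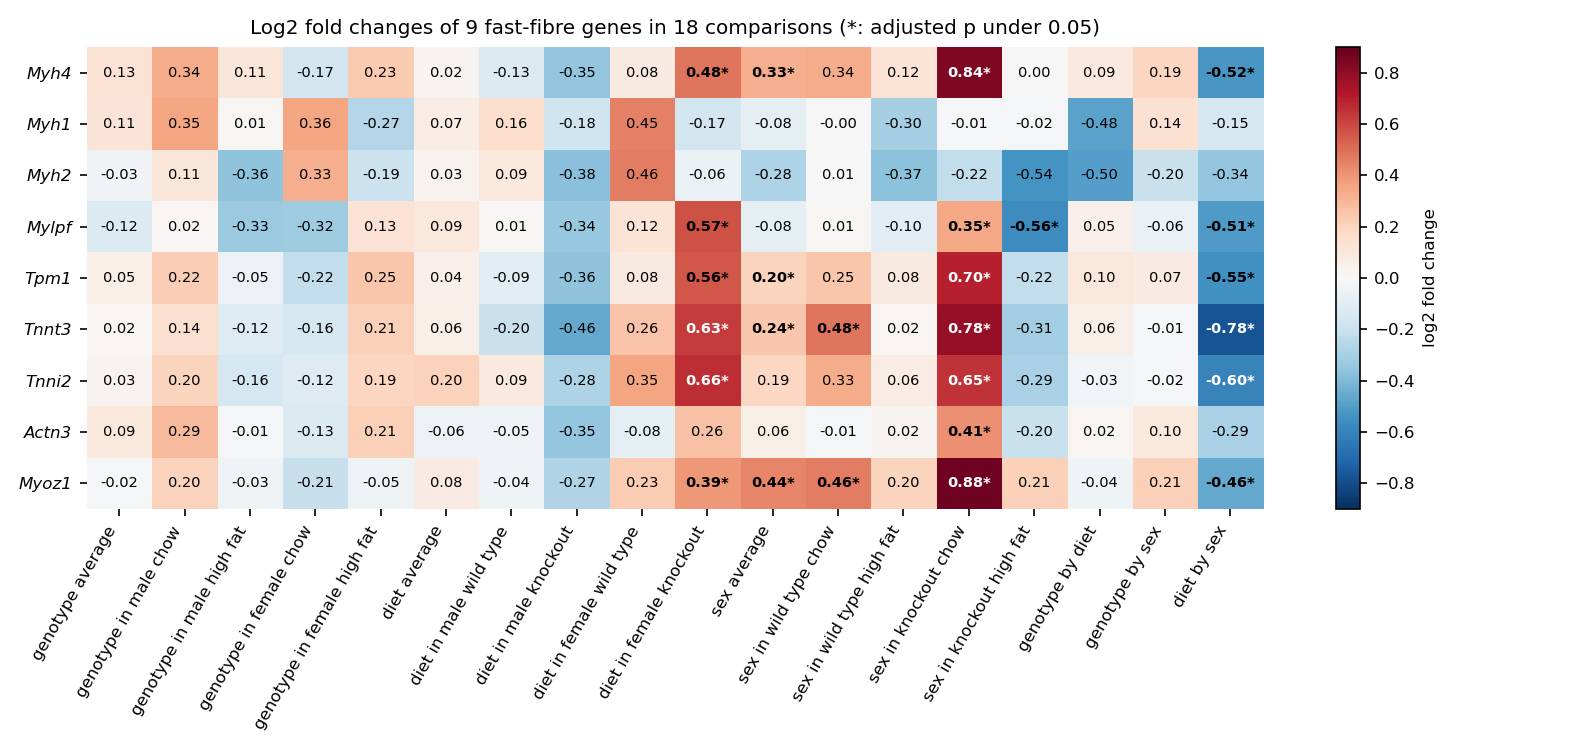
Log2 fold changes (colour and printed value) of the 9 tested fast-fibre genes (rows) in 18 comparisons (columns), knockout over wild type, high fat over chow and male over female, with interactions as the difference between 2 such log2 fold changes; an asterisk marks an adjusted p under 0.05. The calls stand in 4 of the 5 comparisons of sex, in diet in female knockouts and in the interaction of diet and sex, and Myh1 and Myh2 have none.

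The calls for the high-fat diet were made in female knockouts, and all of them were lost without 1 high-fat library. Averaged over sexes and genotypes, 0 of 9 genes were called by edgeR or by DESeq2, and 1, Tnni2 (0.20 ± 0.09, adjusted p = 0.199), had an unadjusted p under 0.05, while 0.827% of all genes were called. The median was 0.06 for the 9 genes and 0.01 for all genes. In female knockouts, 6 of 9 genes were higher on the high-fat diet, while 19.2% of all genes were called and 10.4% called higher. The median was 0.48 for the 9 genes and 0.00 for all genes. Tnni2 was at 7204, 12869.7 and 7299.6 CPM in female knockout high fat, against 5675, 5621, 5518 and 6252 CPM in female knockout chow. The groups do not overlap, and replicate 2 on the high-fat diet is far above the other 2 (0.66 ± 0.18, adjusted p = 0.0136). Tnnt3 was at 19383, 30110.4 and 19607 CPM on the high-fat diet, against 14885, 14309, 14576 and 15682 CPM on chow, with the same library on top (0.63 ± 0.17, adjusted p = 0.0115). Myh4 was at 64228, 64136 and 59682 CPM on the high-fat diet, against 48515, 41690, 44432 and 44614 CPM on chow (0.48 ± 0.13, adjusted p = 0.0106). The 3 high-fat libraries lie close together for Myh4, and all above the chow libraries. Mylpf was at 8496, 11861 and 9195 CPM on the high-fat diet, against 6608, 6490.0, 6349 and 7008 CPM on chow, without overlap (0.57 ± 0.15, adjusted p = 0.00932). Tpm1 (0.56 ± 0.15, adjusted p = 0.0144) and Myoz1 (0.39 ± 0.14, adjusted p = 0.0454) were called too, with 20518 to 31297 CPM of Tpm1 and 1798 to 2243 CPM of Myoz1 on the high-fat diet, against 15771 to 17665 and 1482 to 1541 CPM on chow. Actn3 (0.26 ± 0.16), Myh2 (-0.06 ± 0.32) and Myh1 (-0.17 ± 0.21) were not.

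Without female knockout high fat replicate 2, 0 of the 9 genes and 270 of all genes were called, against 2688 of all genes with it, and the 9 included Myh4 at 0.47 (adjusted p = 0.0729), Mylpf at 0.42 (adjusted p = 0.139), Tnnt3 at 0.39 (adjusted p = 0.208), Tpm1 at 0.33 (adjusted p = 0.247), Tnni2 at 0.33 (adjusted p = 0.302) and Myoz1 at 0.29 (adjusted p = 0.302). Without the 3 libraries high in Krt10, of which 2 are female knockout chow, 0 of the 9 and 106 of all genes were called, with values from 0.38 for Myoz1 to 0.62 for Tnni2 and adjusted p from 0.0847 to 0.208. Myoz1 also lost its call without any 1 of 10 other libraries, controls included (adjusted p = 0.0501 to 0.0922), with scaling by total count (0.23, adjusted p = 0.15), with no filter on low counts (adjusted p = 0.0582) and with the 26 libraries of the same group by both labels (adjusted p = 0.055). With an offset for GC content Myoz1 (0.24, adjusted p = 0.203) and Tnni2 (0.48, adjusted p = 0.0639) were not called. Scaling by total count moved the median of all genes to -0.16 here, and the other 5 genes stayed called. Fibroblast markers summed to 691 to 849.7 CPM in female knockout high fat, against 1008 to 1298 CPM in female knockout chow. Tendon markers summed to 173 to 237 CPM on the high-fat diet, against 329 to 472 CPM on chow, and 3 of 6 were called lower. Skeletal muscle markers summed to 73492 to 78108 CPM on the high-fat diet, against 58172 to 61690 CPM on chow. The part of these differences in the result was not tested.

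In the other 3 strata 0 of 9 genes were called for diet. In wild-type females, where 25.4% of all genes were called, Myh1 (0.45 ± 0.20, adjusted p = 0.0879) and Tnni2 (0.35 ± 0.17, adjusted p = 0.121) had an unadjusted p under 0.05, and DESeq2 called 0. The median was 0.23 for the 9 genes and -0.01 for all genes. Myh1 was at 5024, 4734, 3761 and 2796 CPM in female wild type high fat, against 3678, 3168, 2563 and 2502 CPM in female wild type chow, so the groups overlap. With the replicate number as a block Myh1 was called (0.44, adjusted p = 0.0498), as it was without female wild type chow replicate 1 (0.58, adjusted p = 0.0488) or female wild type high fat replicate 4 (0.60, adjusted p = 0.03), and without the 3 libraries of intermediate Trim63 both Myh1 (0.72, adjusted p = 0.0164) and Myh2 (0.87, adjusted p = 0.0397) were called. In wild-type males, where 0.349% of all genes were called, 0 of 9 had an unadjusted p under 0.05 and DESeq2 called 0, with values between -0.20 for Tnnt3 and 0.16 for Myh1. In male knockouts, where 5.83% of all genes were called, 9 of 9 values were below 0, with a median of -0.35 against 0.05 for all genes, which became 0.18 with scaling by total count while the 9 values stayed below 0. Tnnt3 was at 17774, 18742 and 19153 CPM in male knockout high fat, against 25487, 28365, 24280.2 and 24253 CPM in male knockout chow. The groups do not overlap, and the log2 fold change of -0.46 ± 0.17 had an adjusted p of 0.0901. Myh4 gave -0.35 ± 0.13 (adjusted p = 0.0876) and was called by DESeq2 (adjusted p = 0.0379), as the only gene of the 9. Myh4 was also called without male knockout chow replicate 4 (-0.42, adjusted p = 0.0466), and Tnnt3 without female knockout high fat replicate 2 (-0.49, adjusted p = 0.0456). In total 5 of 9 had an unadjusted p under 0.05, as had 3680 of all 14024 tested genes. With these 2 groups fitted alone 2295 of all genes were called, against 818 in the fit of 8 groups, and 8 of 9 fast-fibre genes were called lower, among them Tnnt3 (adjusted p = 0.0039), with Myh1 as the exception. The fibroblast markers summed to 483 to 718 CPM in male knockout high fat, against 138 to 533 CPM in male knockout chow. Of 6 skeletal muscle markers 2 were called lower and 0 higher in the fit of 8 groups, with a median of -0.375. Of 12 slow-fibre genes 0 were called by edgeR, with a median of -0.48. The part of these differences was not tested.

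The effect of the diet differed between the sexes for 6 of 9 genes. The mean high-fat effect in males minus that in females was tested as an interaction, in which 45.2% of all genes were called and 21.6% were called with a lower value in males. The median was -0.51 for the 9 genes and 0.03 for all genes. It was -0.78 ± 0.16 for Tnnt3 (adjusted p = 0.000366), -0.60 ± 0.18 for Tnni2 (adjusted p = 0.00633), -0.55 ± 0.15 for Tpm1 (adjusted p = 0.00398), -0.52 ± 0.12 for Myh4 (adjusted p = 0.00106), -0.51 ± 0.14 for Mylpf (adjusted p = 0.00448) and -0.46 ± 0.13 for Myoz1 (adjusted p = 0.00587). Actn3 gave -0.29 ± 0.15 (adjusted p = 0.125), Myh2 -0.34 ± 0.31 and Myh1 -0.15 ± 0.20. All 6 stayed called without any 1 of the 30 libraries and without the 3 libraries high in Krt10. With an offset for GC content, Myoz1 (-0.29, adjusted p = 0.0732) and Tnni2 (-0.39, adjusted p = 0.0703) were not called, and with each library grouped by its own title Myoz1 was not (-0.36, adjusted p = 0.0553). Without female wild type chow replicate 4, Actn3 was called (-0.38, adjusted p = 0.0482). Scaling by total count moved the median of all genes to 0.22, with the 6 genes still called and Myh1, not called, at 0.03. Tendon markers moved the other way, with 5 of 6 called and a median of 2.13, and so did 4 of 6 fibroblast markers with a median of 1.15. Of 6 skeletal muscle markers 4 were called lower in males and 2 higher, with a median of -0.56. Of 12 slow-fibre genes 5 were called lower and 0 higher, with a median of -0.42. The part of these lists in the result was not tested.

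**Figure D4:**
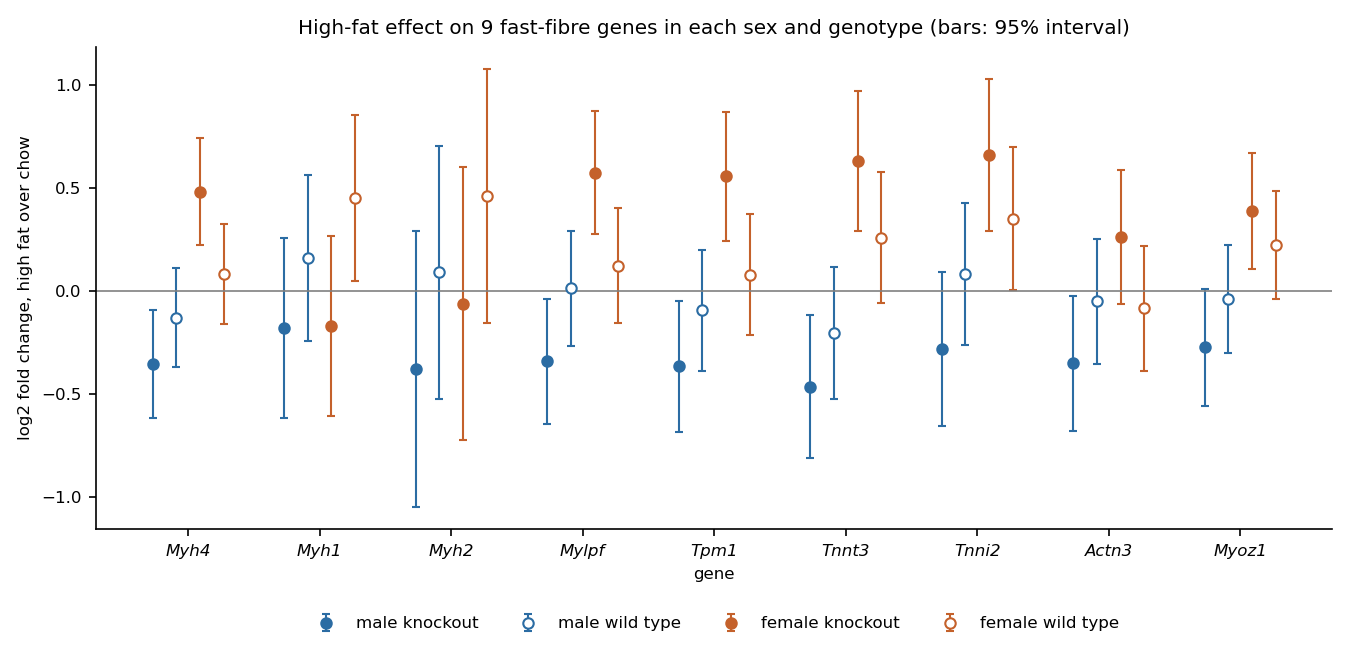
Log2 fold change of high fat over chow (y axis) of the 9 tested fast-fibre genes (x axis) in male knockout, male wild type, female knockout and female wild type mice, with 95% intervals as bars. In female knockouts 6 genes lie above 0 with adjusted p under 0.05, from 0.39 for Myoz1 to 0.66 for Tnni2, and in male knockouts all 9 points lie below 0 without passing that threshold.

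No fast-fibre gene was called by edgeR between knockout and wild-type muscle. The average genotype contrast called 0 of 9 by edgeR and 0 by DESeq2, while 4.39% of all genes were called. The median was 0.03 for the 9 genes and -0.01 for all genes. Myh4 had the only unadjusted p under 0.05 (0.13 ± 0.06, 95% interval 0.005 to 0.25, adjusted p = 0.233), with 41690 to 93043 CPM and a median of 64042 in knockouts (n = 14), against 44296 to 75530 CPM and a median of 56272 in wild type (n = 16). The intervals of the other genes ran from -0.35 to 0.29 for Myh2, from -0.27 to 0.02 for Mylpf and from -0.10 to 0.32 for Myh1, and those of the other 5 lay within -0.16 and 0.25. In males on chow, where 6.95% of all genes were called, 0 of 9 were called, with a median of 0.21 against -0.02 for all genes, and Myh4 alone had an unadjusted p under 0.05 (0.34 ± 0.12, adjusted p = 0.0782). Myh4 was at 71755, 93043, 82606 and 73250.3 CPM in male knockout chow, against 58868, 59974, 59609 and 75530.4 CPM in male wild type chow. Only wild type replicate 4 reaches the knockout range. Myh4 was called by DESeq2 (adjusted p = 0.0287), and without that library Myh4 (0.44, adjusted p = 0.0159) and Actn3 (0.49, adjusted p = 0.0248) were called. Myh4 was also called without male knockout chow replicate 4 (adjusted p = 0.0443) or male wild type high fat replicate 1 (adjusted p = 0.0429). Fibroblast markers summed to 138 to 533 CPM in male knockout chow, against 479.7 to 879 CPM in male wild type chow, with 6 of 6 called lower, and their part was not tested. Scaling by total count moved the median of all genes to -0.19 in this comparison. In males on the high-fat diet (0.264% of all genes called) and in females on chow (0.0927%), 0 of 9 were called by either tool, and Mylpf had the only unadjusted p under 0.05, with -0.33 ± 0.15 (adjusted p = 0.435) and -0.32 ± 0.14 (adjusted p = 0.933). In females on the high-fat diet (0.0713%) 0 of 9 were called by either tool and 0 had an unadjusted p under 0.05, with a median of 0.19. The genotype effect did not differ between diets or sexes past the threshold for any of the 9 genes, by edgeR or DESeq2, while 0.107% and 0.0285% of all genes were called. Myh1 had an unadjusted p under 0.05 for the difference between diets (-0.48 ± 0.20, adjusted p = 0.527), and 0 of 9 had it for the difference between sexes.

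Within groups the 9 genes formed 2 blocks. After the mean of each group was subtracted, the log2 CPM of Tnnt3 and Tpm1 had a Pearson r of 0.98 over 30 libraries, and Tnnt3 and Tnni2 0.96. Among the 21 pairs without Myh1 and Myh2, r ran from 0.41 to 0.98 with a median of 0.86. Myh1 and Myh2 had an r of 0.89 with each other, and of -0.74 to -0.37 with the other 7 genes, with a median of -0.56 over 14 pairs. Myh4 was closest to Actn3 among the 9, with r of 0.64, and lower with Tnni2 (0.41) and Tnnt3 (0.49). These libraries share scaling and tissue composition, so the values describe them and carry no test. The genes outside the list with the most similar pattern, among 3557 well-expressed genes, were the glycogen phosphorylase gene Pygm for Myh4 (r = 0.85), the fatty acid oxidation gene Hadha for Myh1 (0.92), the ketone body enzyme gene Bdh1 for Myh2 (0.90), Hdgf for Myoz1 (0.94), the adiponectin receptor gene Adipor1 for Actn3 (0.93), Cltb for Tnni2 (0.97), Sh3bgr for Tnnt3 (0.96), the calcium buffer gene Pvalb for Mylpf (0.95) and the thin filament gene Tmod4 for Tpm1 (0.96).

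**Figure D5:**
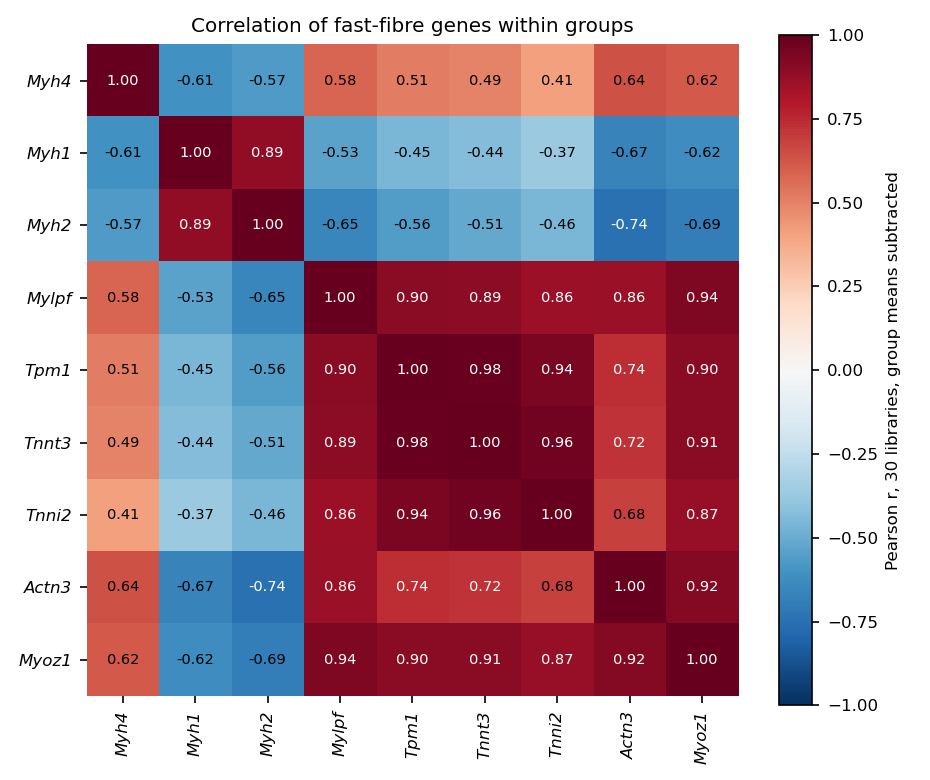
Pearson r (colour and printed value) between the log2 CPM of the 9 tested fast-fibre genes over 30 libraries after the mean of each group was subtracted. Myh1 and Myh2 are positive with each other (0.89) and negative with the other 7 genes, whose pairs are positive from 0.41 upwards.

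Other genes of fast fibres were counted beside the 10, and each count stands against the share of all tested genes called in that comparison. Of 12 further genes of fast fibres, among them the light chain gene Myl1, the calcium pump gene Atp2a1, Pvalb and the calcium store gene Casq1, 3 were higher in males on average (Tmod4 0.29, Mybpc2 0.24 and Myl1 0.25), against 13.4% of all genes. In knockouts on chow 10 of 12 were higher in males, with Mybpc2 at 0.74, Atp2a1 at 0.61, Casq1 at 0.58 and Myl1 at 0.67, against 19.1% of all genes. In knockouts on the high-fat diet 5 of 12 were lower and 0 higher in males (median -0.395), against 5.88% of all genes called lower. Wild type on the high-fat diet had 1 lower and 0 higher, where 820 of 14024 genes were called lower. Wild type on chow had 1 higher and 0 lower, where 773 of 14024 were called higher. On the high-fat diet 9 of 12 were higher in female knockouts (Casq1 0.70, Pgam2 0.86, Pvalb 0.86 and Atp2a1 0.54), against 10.4% of all genes. In wild-type females 4 of 12 were higher (Mylk2 0.50, Jsrp1 0.73, Pgam2 0.55 and Atp2a1 0.32), where 1804 of 14024 genes were called higher. In male knockouts 3 of 12 were lower (Mylk2 -0.52, Atp2a1 -0.43 and Ampd1 -0.35), where 256 of 14024 were called lower. The diet effect differed between the sexes for 9 of 12, all lower in males, led by Atp2a1 (-0.74), Mylk2 (-0.83), Pgam2 (-0.94) and Jsrp1 (-0.97), against 21.6% of all genes. For genotype, edgeR called 0 of 12 on average, with 1 at an unadjusted p under 0.05, and in males on chow Mybpc2 was called (0.40). Of the 12 slow-fibre genes, edgeR called 0 for genotype on average, with 1 at an unadjusted p under 0.05, and 2, Actn2 (0.76) and Tnni1 (1.02), were higher on the high-fat diet in wild-type females. All 12 slow-fibre genes had an unadjusted p under 0.05 for sex in wild-type mice on the high-fat diet, as had 3821 of 14024 genes. Of the 12, 6 were called lower in males, where 820 of 14024 genes were, whereas 0 of the 9 fast-fibre genes were called there.

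Of 22 genes known as regulators of fibre type, 5 were higher and 5 lower in males on average, where 30.8% of all genes were called. Tbx15, a T-box factor of fast glycolytic fibres, was higher in males (0.42, adjusted p = 3.52e-07), and Vgll2 (-0.67), Prox1 (-0.81), a factor known for the slow programme, and Mafa (-0.55) were lower in males. For the difference of the diet effect between sexes 11 of 22 were called, near the 45.2% of all genes, 5 higher and 6 lower in males, with Vgll2 at -1.06, Tead1 at 0.70, Sox6 at 0.69 and Nfatc1 at -0.49. On the high-fat diet 3 of 22 were higher and 2 lower in female knockouts, where 19.2% of all genes were called. In wild-type females 4 were higher and 2 lower, where 25.4% of all genes were called. Sox6, a repressor of slow-fibre genes, was among the lower ones in female knockouts (-0.54) and in wild-type females (-0.53). Among the MuRF family, Trim63 aside, Trim54 was higher in males (0.23) and Trim55 lower (-0.19). Of 7 tested developmental and cardiac sarcomere genes, Actc1 (-0.90) and the embryonic myosin gene Myh3 (-1.19) were lower in knockouts on average, where 397 of 14024 genes were. Actc1 was not lower in females on the high-fat diet, at 808.6 ± 22.5 CPM in knockouts (SD, n = 3) against 705.4 ± 46.4 in wild type (n = 4). Of the 7, 3 were lower in males on average, where 2434 of 14024 genes were. On the high-fat diet 3 were higher in wild-type females, where 1804 of 14024 genes were.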

How the data were processed

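Stranded polyA libraries (TruSeq) were sequenced with paired reads of 150 bases, per the labels' protocols. For each library the authors deposited raw read counts per gene, and featureCounts, bcl2fastq and mm10 are named in the submitters' processing notes. What aligner, annotation version and strand option were used is not given in the sources used here. Title and description of a record carried different animal numbers in 19 records, so each library took the group of the title with the animal number of its own file, and this differs from its own title in 4. By its own title male knockout high fat replicate 3 (Trim63 1.83 CPM, Ddx3y 34.65 CPM) would be female wild type chow. Female knockout chow replicate 4 (Trim63 0.81 CPM) would be wild type. Female wild type chow replicate 4 (Trim63 211.6 CPM) and female wild type high fat replicate 4 (123.5 CPM) would be knockout. A library whose animal number is in no title was left out. Its own title says male knockout high fat, with Trim63 at 107 CPM.

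Counts were TMM-scaled and tested with edgeR 4.0.16 (R 4.3.3, limma 3.58.1) by quasi-likelihood in 1 fit of 8 groups, for 14024 genes kept at a count minimum of 10. P-values were adjusted by Benjamini-Hochberg within each contrast, with a threshold of 0.05. Depending on the contrast, an unadjusted p under 0.05 was held by 681 (genotype in females on chow) to 7419 (diet by sex) of the 14024 genes. Alternatives were DESeq2 1.42.0, other scalings, filters and groupings, a replicate block and leaving out libraries, of which those on intermediate Trim63, Krt10 and GC content were chosen after seeing the data. The fit was also run on counts simulated with its own fitted spread. Such counts hold no outlying libraries, so that run could not show how the results depend on single libraries. Identifiers without a gene symbol held 0.107% of the counts. The lowest chi-square per gene between libraries of 1 group was 4.36 over 42 pairs, so every pair differed by more than sampling noise. Replicate numbers were not used as pairing in the reported fit, only in the alternative with a replicate block. In 2 contrasts every same-number pair had a correlation above 0.1. These were diet in wild-type females (0.152 to 0.341) and sex in wild type on high fat (0.216 to 0.564). The labels give no shared litter or day.

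The members and gene lists were chosen with earlier results of these data known. Named beside the members were up to 4 called genes per list and contrast, by smallest p, and the most similar gene to each member by Pearson r over genes whose log2 CPM averaged 5 or more.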

Additional observations from a re-analysis of the deposited data

Results flagged for a closer look

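The diet effect differed between males and females for 6 of the 9 tested genes by the interaction test (edgeR), in which 45.2% of all genes were called and 21.6% were lower. The mean effect in males minus that in females, on the log2 scale, was -0.78 for Tnnt3, -0.60 for Tnni2, -0.55 for Tpm1, -0.52 for Myh4, -0.51 for Mylpf and -0.46 for Myoz1.

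In 6 of 60 sets of 4 libraries, 1 library stood apart from the other 3 by Dixon's criterion. For a single set chance gives about 1 in 20. The sets reuse the same libraries for each gene, Tnnc2 included, and the tested genes are correlated within groups. The sets are thus not independent, and whether 6 is more than chance gives was not tested. Groups of 3 libraries were not screened, so female knockout high fat replicate 2 was not covered. Male wild type chow replicate 4 was highest for Myh4, at 75530 CPM with the others at 58868 to 59974 CPM, and for Tpm1, at 30077 CPM with the others at 19687 to 21258 CPM. In female knockout chow, replicate 2 was highest for Myh2, at 3413 CPM with the others at 2397 to 2564 CPM, and replicate 3 was highest for Actn3, at 9037 CPM with the others at 8328 to 8407 CPM. Actn3 was lowest in male wild type high fat replicate 1, at 7063 CPM with the others at 9455 to 9790 CPM. Tnni2 was lowest in female wild type chow replicate 3, at 5808 CPM with the others at 6366 to 6421 CPM.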

How the results depend on the processing

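No log2 fold change that was called turned its direction under any alternative, and over the 9 genes and 18 contrasts 6792 values kept their side of the threshold, 43 gained a call and 77 lost it. The number of fast-fibre genes called fell to 0 for diet in female knockouts and for sex in wild type on chow and to 2 for average sex without the 3 libraries high in Krt10. With scaling by total count, sex in knockouts on chow gave 4 and sex in wild type on chow 1. Grouping all 31 libraries by their own titles gave 0 for sex in wild type on chow, and the 26 libraries with 1 group by both labels gave 1. With only the 2 groups compared, diet in male knockouts gave 8, sex in knockouts on high fat 0 and sex in wild type on chow 1. DESeq2 gave 1 for diet in male knockouts and 1 for genotype in males on chow. Diet in wild-type females gave 1 without male wild type chow replicate 3 and female wild type chow replicate 1, and 2 without the 3 libraries of intermediate Trim63.

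With the replicate block, diet in wild-type females gave 1 (Myh1, adjusted p = 0.0498) and sex in wild type on chow 3 in place of 2 (Myh4, adjusted p = 0.0495), and the block changed no other count. Over 12 contrasts the same-number correlation ran from -0.569 to 0.564, and in 0 did every library correlate best with its own number.

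Leaving out 1 library at a time gave 6 to 7 for diet by sex, 0 to 6 for diet in female knockouts, 0 to 1 for diet in wild-type females and in male knockouts, 0 to 2 for genotype in males on chow, 3 to 5 for average sex, 5 to 7 for sex in knockouts on chow, 0 to 1 for sex in knockouts on high fat and 0 to 3 for sex in wild type on chow. The other 9 contrasts stayed at 0.

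Over all genes the count called moved by over 1.5 times in 16 of 18 contrasts. Aside from leaving out single libraries, it ran from 0 to 361 for average diet (116 as reported), from 106 to 3855 for diet in female knockouts (2688), from 5 to 3844 for diet in wild-type females (3558), from 478 to 2295 for diet in male knockouts (818), from 1 to 130 for diet in wild-type males (49), from 128 to 997 for average genotype (615), from 279 to 1886 for genotype in males on chow (974), from 129 to 2043 for sex in wild type on chow (1689), from 469 to 1990 for sex in wild type on high fat (1759), from 611 to 2057 for sex in knockouts on high fat (1880), from 3252 to 6960 for sex in knockouts on chow (5974) and from 3288 to 5226 for average sex (4317). The other 3 genotype contrasts and both genotype interactions called at most 102. With scaling by total count the share of called genes that were higher was 9.80% in place of 44.9% for sex in knockouts on chow, 18.0% in place of 54.1% for diet in female knockouts, 17.3% in place of 43.6% for average sex and 74.3% in place of 52.3% for diet by sex. Groups of 3 or 4 animals limit the precision, and Tnnc2, at 1 to 11 counts, was too low to test.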

Other observations

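The library whose animal number is in no title, and which was placed in no group, had 61760 CPM of Myh4, 2801 of Myh1, 2028 of Myh2, 2300 of Myoz1, 8261 of Actn3, 7319 of Tnni2, 18820 of Tnnt3, 6422 of Mylpf and 19940 of Tpm1, scaled by its total count, and 2 counts of Tnnc2. Its Trim63 level was 107 CPM, its Ddx3y level 51.7 CPM and its Xist level 0.0954 CPM.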
